A study of Mus musculus with 5 samples.

Results

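The cells described here are fibroblast-like cells in 5 single-cell libraries that had been sorted for CD45, the surface protein of blood-derived cells. They were selected on measured values. A barcode had to hold 5 or more UMIs (counted RNA molecules) summed over Col1a1, Col1a2, Col3a1 and Dcn, no UMI of Ptprc, the gene of CD45 itself, and fewer than 10 UMIs each of Krt5 plus Krt14 (basal keratinocyte keratins) and of Cd74 (the class II invariant chain). Of 6162 cells with at least 200 genes and at most 10% mitochondrial UMIs, 54 met this rule, or 0.876% (exact 95% binomial interval 0.659 to 1.14). The other 6108 cells are the comparison set.

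The libraries come from digested dermis of C57BL/6 mice, with live CD45+ cells captured on the 10x Genomics platform. P50_Depil5D, whose added label was read as depilation with a number of days although the sources used here do not spell it out, is set against P50. The number after P in each label was read as a day. P45, P50, P63 and P80 were taken at 4 points of telogen, the resting phase of the hair cycle. Each condition is 1 library, so no test between conditions was possible, and neither the sex nor the number of mice is stated. Every interval below covers counting error only. Levels are in CPM, UMIs of the gene per 1000000 UMIs of the summed cells.

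Dermal fibroblasts make the connective tissue of skin. They secrete fibrillar collagen chains, chiefly types I and III, and small proteoglycans such as decorin that bind collagen fibrils and regulate their spacing. Other fibroblasts form the dermal papilla and the connective tissue sheath of the hair follicle, which signal to the follicle epithelium. Fibroblasts do not normally carry CD45.

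Depth per library ran between 1032621 UMIs in P80 and 7491878 in P45. The fibroblasts held 175300 UMIs in all, with a median of 2435 per cell against 1974 in the other cells. Across the series, 834 kept cells shared their barcode with a cell of another library, and 1 of them was a fibroblast, taken up below.

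The cells did not form 1 kind. Coch, the gene of the extracellular matrix protein cochlin, and Col3a1, the type III collagen chain, split most of them: 21 cells had more Coch than Col3a1 UMIs (Coch-led) and 28 had more Col3a1 (Col3a1-led). A further 2 cells held over 20000 UMIs each, with little collagen, and 3 cells held 4 to 8 UMIs of Rgs5, a marker of mural cells. These 4 groups were drawn after the values were seen, so they carry no test.

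The stretches of 250 bases just before the RefSeq start of 3 genes are shown because these genes separate the 2 main groups: Coch and Fmod led 1 group, and Col3a1 the other. They are RefSeq sequences of build GRCm38.p6, all on the plus strand, written 5′ to 3′ with each E-box, CANNTG, in capitals. Twist1 and Twist2, whose proteins bind E-boxes, are among the transcription factor genes described below. The windows are chr12:51593091-51593340 for Coch, chr1:134037004-134037253 for Fmod and chr1:45311288-45311537 for Col3a1.
Coch: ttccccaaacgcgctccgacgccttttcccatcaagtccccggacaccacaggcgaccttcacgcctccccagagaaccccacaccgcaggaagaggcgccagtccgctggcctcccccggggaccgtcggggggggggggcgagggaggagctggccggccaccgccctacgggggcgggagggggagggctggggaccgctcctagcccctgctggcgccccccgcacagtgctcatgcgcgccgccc
Fmod: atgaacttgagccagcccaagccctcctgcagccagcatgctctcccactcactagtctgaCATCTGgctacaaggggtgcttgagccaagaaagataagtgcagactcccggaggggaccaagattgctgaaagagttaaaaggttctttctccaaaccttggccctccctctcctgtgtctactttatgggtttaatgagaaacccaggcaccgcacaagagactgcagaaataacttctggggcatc
Col3a1: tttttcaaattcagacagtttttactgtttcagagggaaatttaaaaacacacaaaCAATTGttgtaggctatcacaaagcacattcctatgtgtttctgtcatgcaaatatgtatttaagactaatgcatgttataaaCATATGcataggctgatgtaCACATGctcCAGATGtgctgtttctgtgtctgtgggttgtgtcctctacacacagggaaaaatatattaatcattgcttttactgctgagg
The Col3a1 window had 4 E-boxes and 1 TATAAA, and the Fmod window 1 E-box. No E-box, TATAAA or CCAAT was found in the Coch window on either strand. In the Col3a1 window 1 E-box starts on the base after the TATAAA match. Of all 32851 RefSeq windows of this length, 66.2% held an E-box, 12.4% TATAAA and 33.8% CCAAT. The GC content was 74.8% in the Coch window, 51.2% in Fmod and 35.2% in Col3a1. In the files' build, mm10, Coch (ENSMUSG00000020953) lies on chromosome 12 at 51593341 to 51605771, and Fmod (ENSMUSG00000041559) on chromosome 1 at 134037254 to 134048277.

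**Figure D1:**
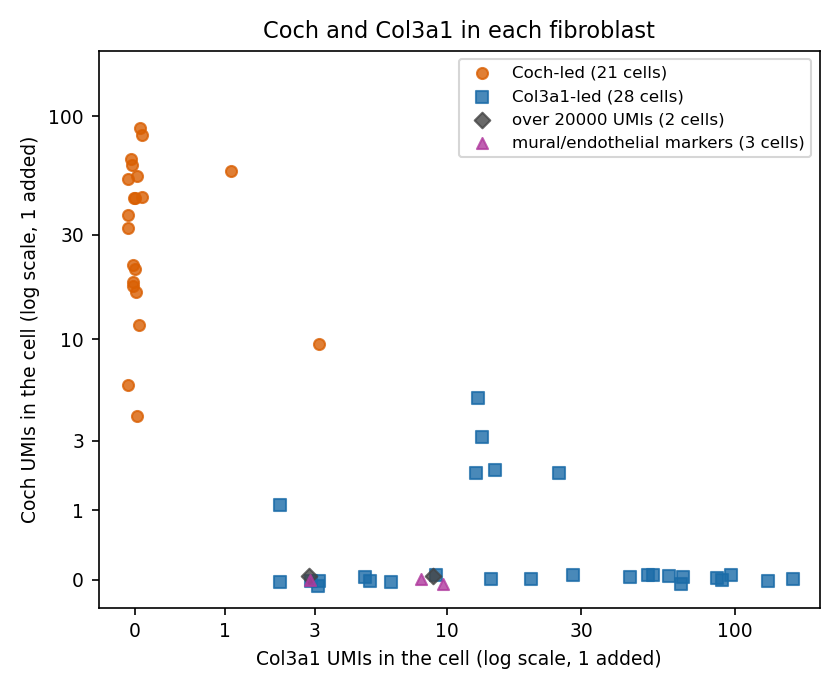
Each point is 1 fibroblast, placed by its Col3a1 UMIs (x axis) and Coch UMIs (y axis), both on a log scale with 1 added and a small random offset; colours and shapes give the 4 groups. The 21 Coch-led cells sit along the Coch axis, with a Col3a1 UMI in 2 of them, and the 28 Col3a1-led cells sit along the Col3a1 axis, with a Coch UMI in 6 of them.

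Counts per cell show how far the groups stood apart. Coch-led cells had 4 to 86 Coch UMIs (median 39), and Col3a1-led cells 0 to 5 (median 0). Col3a1 had 0 to 3 UMIs in Coch-led cells (median 0) and 2 to 149 in Col3a1-led cells (median 17.5). The choice of groups fixes the direction of both genes. Over all 54 cells the Spearman correlation of Coch and Col3a1 in CPM was -0.76, and these points share libraries and depth.

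Of 852 genes with at least 20 UMIs over both groups, 35 (4.11%) were at least 4-fold higher in Coch-led than in Col3a1-led cells and 43 (5.05%) at least 4-fold lower, with 10 CPM added to each level. These counts include Coch and Col3a1, which made the split. The genes named next were chosen after their values were seen, as those with the largest ratios and the members of the lists. Without P45, which holds 16 cells of each group, 5 Coch-led and 12 Col3a1-led cells were left, and 10 genes were higher and 16 lower among the 265 that then passed. Requiring 0 UMIs over 9 immune markers left 8 Coch-led and 14 Col3a1-led cells, with 11 genes higher and 26 lower.

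Small leucine-rich proteoglycans, which bind collagen fibrils, leaned to the Coch-led cells. Of 8 that passed, 4 were at least 4-fold higher in Coch-led cells and none lower. Fmod (fibromodulin) had 205 UMIs in Coch-led cells, or 3863 CPM, and 1 UMI in Col3a1-led cells, or 14.6 CPM, a ratio of 264 (46.8 to 10466). It was detected in 20 of 21 Coch-led and 1 of 28 Col3a1-led cells. Kera (keratocan, known from the cornea) had 33 UMIs in Coch-led cells and 0 in Col3a1-led cells. That is at least 14.2-fold higher when a count of 0 is set to 3 UMIs over the group, or 10.9-fold by the exact interval. Aspn (asporin) stood at 3203 CPM in Coch-led and 410 CPM in Col3a1-led cells, a ratio of 7.81 (5.22 to 12.1), and Ogn (osteoglycin) at 490 and 29.3 CPM. Dcn (decorin) was close in level between the groups, at 7650 CPM in Coch-led and 5800 CPM in Col3a1-led cells, a ratio of 1.32 (1.15 to 1.52). Lum (lumican) went the other way, at 565 CPM in Coch-led and 2021 CPM in Col3a1-led cells. Bgn (biglycan) was also lower in Coch-led cells, at 1752 CPM against 2475 CPM, a ratio of 0.708 (0.544 to 0.917). Outside P45 it was not, at 2336 CPM in Coch-led and 1968 CPM in Col3a1-led cells.

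Coch-led cells also carried Tnmd (tenomodulin, a membrane protein known from tendon and ligament cells), at 3806 CPM against 220 CPM in Col3a1-led cells, a ratio of 17.3 (10.3 to 31.5). Cck, the gene of the peptide hormone cholecystokinin, had 124 UMIs in 12 Coch-led cells and 0 in Col3a1-led cells. That is at least 53.2-fold higher with 0 set to 3 UMIs, or 42.6-fold by the exact interval. Every cell with a Cck UMI, and every cell with a Kera UMI, also had Fmod. Crabp1, a binding protein for retinoic acid, had 4692 CPM in Coch-led cells and 205 CPM in Col3a1-led cells, a ratio of 22.9 (13.4 to 42.5). Its log2 ratio, 4.45, was 5.88 in P45 cells alone and 3.48 without P45. With the 5 other cells counted as Col3a1-led it was 1.13, under the 4-fold call, since the 2 deep cells are rich in Crabp1. Ngb (neuroglobin) had 24 UMIs in Coch-led cells and 0 in Col3a1-led cells, at least 10.3-fold higher, or 7.74-fold by the exact interval. Lower down were Meox2 (a homeobox factor) at 697 and 43.9 CPM, Gldn (gliomedin) at 509 and 29.3 CPM, and Igfbp4 at 886 and 43.9 CPM, each Coch-led first. Enpp2, the enzyme autotaxin that makes lysophosphatidic acid, stood at 1941 CPM in Coch-led and 278 CPM in Col3a1-led cells. Outside P45 that gap was smaller, at 1085 and 684 CPM.

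The 2 members of the dermal papilla and sheath list that passed, Crabp1 and the Wnt inhibitor gene Wif1, were both over 4-fold higher in Coch-led cells, with the limits on Crabp1 just given. Wif1 had 20 UMIs in 10 Coch-led cells and 2 UMIs in 1 Col3a1-led cell, a ratio of 12.9 (3.12 to 114). The other 12 listed genes were too rare to pass. Twist1 and Twist2, transcription factors of mesenchyme, had ratios of 3.43 (1.54 to 8.39) and 2.64 (1.47 to 4.93), with Twist1 at 452 and 132 CPM and Twist2 at 697 and 264 CPM in Coch-led and Col3a1-led cells. Thy1, a surface protein of fibroblasts and T cells, stood at 1960 and 762 CPM in the same order. Pdgfra, the receptor often used to mark fibroblasts, had 1 UMI in Coch-led and 12 UMIs in Col3a1-led cells, a ratio of 0.107 (0.00251 to 0.725).

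Summed levels of type I collagen were lower in Coch-led than in Col3a1-led cells. Col1a1 stood at 5954 CPM in Coch-led and 23758 CPM in Col3a1-led cells, a ratio of 0.251 (0.221 to 0.283), and Col1a2 at 7122 and 29836 CPM, a ratio of 0.239 (0.213 to 0.267). Per cell the ranges overlapped, with 3 to 37 Col1a1 UMIs (median 13) in Coch-led and 1 to 340 (median 19.5) in Col3a1-led cells. The median Col1a2 count went the other way, at 17 UMIs in Coch-led (1 to 41) and 15.5 in Col3a1-led cells (1 to 339). The Col1a1 gap was widest in P45, at 6742 CPM in Coch-led and 32319 CPM in Col3a1-led cells, against 3254 and 7315 CPM outside P45. Col6a3, a chain of the beaded filaments of type VI collagen, had 188 and 981 CPM, while Col6a1 had 528 and 879 CPM. Col7a1, the collagen of anchoring fibrils, was higher in Coch-led cells, at 358 CPM against 87.9 CPM, a ratio of 4.07 (1.56 to 12.5). Col4a1, Col16a1 and Col18a1 had ratios of 0.904, 0.895 and 1.40, with intervals that include 1. Sparc, a collagen-binding glycoprotein made by bone and connective tissue cells, had 8856 CPM in Coch-led and 16566 CPM in Col3a1-led cells and was found in every cell of both groups. Outside P45 its levels were close, at 5590 CPM in Coch-led and 5048 CPM in Col3a1-led cells. Serpinh1, the collagen chaperone, differed less, at 1413 and 1670 CPM, with a ratio of 0.846 (0.624 to 1.14). Outside P45 its levels were close too, at 1001 and 941 CPM.

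The list of elastic fibre and other matrix genes was mixed. Of 13 members that passed, 6 were at least 4-fold lower in Coch-led cells (Fbn1, Eln, Mfap4, Fn1, Tnxb and Dpt) and 1, Fbln5, higher. Fn1, Tnxb and Dpt are matrix genes outside the elastic fibre proper. Outside P45 Fn1 (fibronectin) had 83.4 CPM in Coch-led cells and no UMI in Col3a1-led cells, too few UMIs to give a direction. Eln (elastin) stood at 113 CPM in Coch-led and 864 CPM in Col3a1-led cells, a ratio of 0.131 (0.0462 to 0.302), and Fbn1 (fibrillin) at 56.5 and 469 CPM. Fbln5, a fibulin needed to assemble elastic fibres, went the other way at 867 and 132 CPM, as did Ltbp4, a latent TGF-beta binding protein, at 641 and 190 CPM (ratio 3.36, 1.73 to 6.95). Outside P45 Ltbp4 did not show that gap, at 250 CPM in Coch-led and 299 CPM in Col3a1-led cells, from few UMIs. Its symbol stands for more than 1 gene ID. Mfap2, a microfibril protein, had 829 and 542 CPM. Dpt (dermatopontin) had 0 UMIs in Coch-led cells and 41 UMIs in 15 Col3a1-led cells, at least 10.6-fold lower, or 8.26-fold by the exact interval. Clec3b (tetranectin) likewise had 0 UMIs in Coch-led cells against 61 UMIs in 15 Col3a1-led cells, at least 15.8-fold lower, or 12.5-fold by the exact interval. Cpz (a carboxypeptidase), Tgfbi and Pcolce2 (an enhancer of procollagen processing) were also at 0 in the Coch-led cells, with 24, 36 and 22 UMIs in the Col3a1-led cells.

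Some of the ratios rest on few cells. Acta2, smooth muscle actin, had 0 UMIs in Coch-led cells and 95 in Col3a1-led cells, of which 68 came from 1 P50 cell that also had 8 UMIs of Myh11, the smooth muscle myosin. All 5 contractile genes that passed were at least 4-fold lower in Coch-led cells, and this rested on that cell. Without it Acta2 and Tagln alone passed the minimum of 20 UMIs, both still past 4-fold, with Tagln at 37.7 CPM in Coch-led and 451 CPM in Col3a1-led cells. Myl9 then had 94.2 and 202 CPM, a ratio of 0.466 (0.130 to 1.39). Within P45 neither Myl9 nor Tpm2 was lower in Coch-led cells. Myl9 stood at 122 CPM in Coch-led and 44.5 CPM in Col3a1-led cells, and Tpm2 at 73.0 and 66.8 CPM. With at most 5 and 3 UMIs of these genes in Coch-led cells, no turn of direction is shown. Over all genes, 34 were higher and 38 lower in Coch-led cells without that cell. Of the 30 Mgp UMIs of Col3a1-led cells, 27 were in 1 cell, and of the 64 Gpx3 UMIs, 40 were in 1 cell. Ccl19, a chemokine that draws cells with the receptor Ccr7, had 77 UMIs in Coch-led and 98 UMIs in Col3a1-led cells, but 76 of the first and 60 of the second came from 1 P63 cell each. The Coch-led P63 cell with 76 Ccl19 UMIs had 4 Coch UMIs and no Tnmd or Crabp1 UMI. The symbol Ccl19 stands for more than 1 gene ID in the table, so its counts may be split between close copies.

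**Figure D2:**
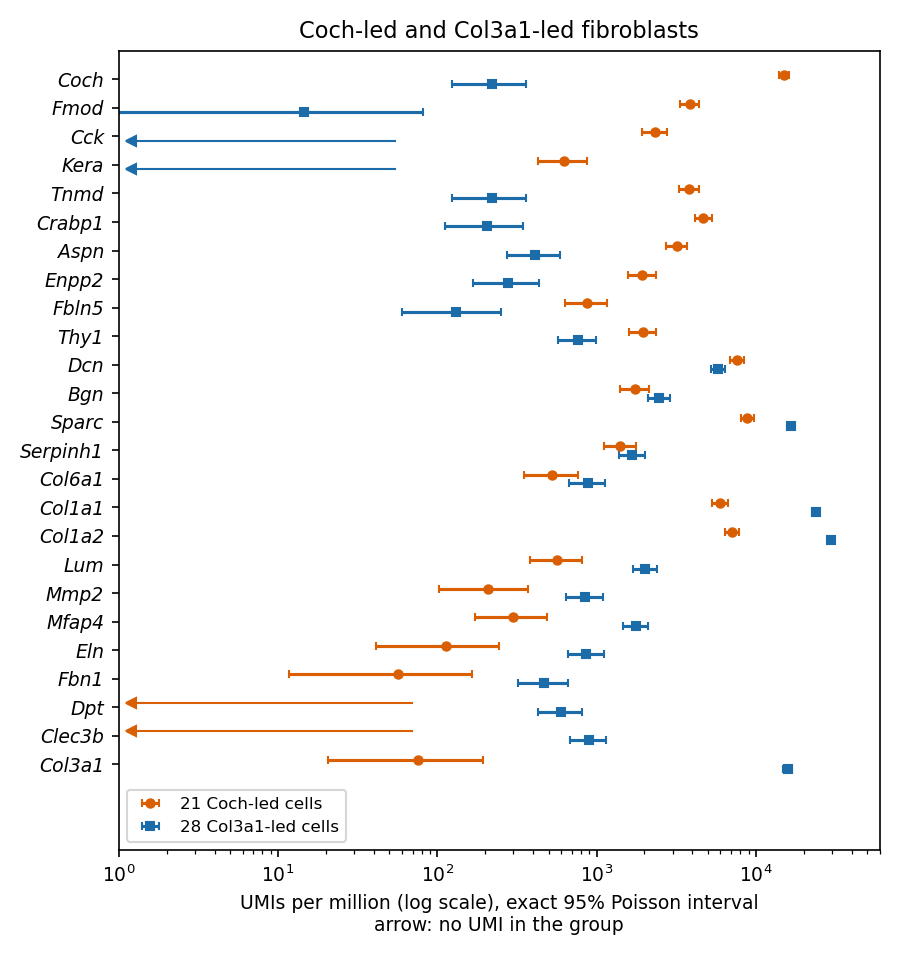
Levels of 25 genes in CPM (log x axis) for 21 Coch-led and 28 Col3a1-led fibroblasts, with exact 95% Poisson intervals; an arrow marks a gene with no UMI in the group and its line ends at the upper limit. Dcn, Bgn, Sparc, Serpinh1 and Col6a1 lie close together, while Coch, Fmod, Cck, Kera, Tnmd and Crabp1 are higher in Coch-led cells and Dpt, Clec3b and Col3a1 lower.

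The remaining cells stood outside both groups. The P50_Depil5D fibroblast had 21546 UMIs and the deep P63 fibroblast 22021, together 24.9% of all fibroblast UMIs, with 23 and 9 UMIs of the 4 collagen and decorin genes. They had 95 and 153 UMIs of Crabp1 and 111 and 140 UMIs of Igfbp3, a binding protein of insulin-like growth factors, and between 23 and 39 of Bmp4. Both also had Notum (a Wnt-inactivating enzyme) at 6 to 11 UMIs, Rspo1 (a Wnt amplifier) at 5 to 9 and Dkk2 (a Wnt antagonist) at 29 to 34. Neither had a Coch, Tnmd or Fmod UMI. The barcode of the P63 cell also occurred in P50, P80 and P50_Depil5D, with 3371, 3993 and 3530 UMIs, Crabp1 at 36, 31 and 32 UMIs and Igfbp3 at 22, 20 and 16. None of these copies met the collagen minimum, their sums being 0, 2 and 2.

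The 3 Rgs5-bearing cells had 4 to 8 UMIs of Rgs5, a regulator of G-protein signalling found in pericytes, and 3 to 59 of Fabp4, a fatty acid carrier of fat and capillary endothelium. None had a Dcn or Coch UMI, and 1 had 6 UMIs of Cdh5, the endothelial cadherin. The markers of these 3 cells go against the label of fibroblast. So do those of 1 Col3a1-led P50 cell, with 68 UMIs of Acta2, 8 of Myh11, no Dcn and 10 collagen UMIs. All 4 stay in the values, as the rule chose them. Without them 50 cells remained, with 425 genes at least 4-fold higher in fibroblasts than in the other cells and 318 lower. These 50 were not cleared of every cell with markers of another type. They still held a Col3a1-led P50 cell with 10 UMIs of the T cell gene Cd3g, no Dcn and 9 collagen UMIs.

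Against all other cells, the 25 genes with the largest ratio (10 CPM added to both levels) were led by the 4 genes of the rule, whose values chose the cells. Col3a1 (ENSMUSG00000026043, mm10 chromosome 1, 45311538 to 45349706) had 6378 CPM in fibroblasts and 35.1 CPM in the other cells. Col1a2 (chromosome 6, 4504814 to 4541544) had 13868 and 113 CPM. Dcn (chromosome 10, 97479609 to 97518143) had 4586 and 31.8 CPM. Col1a1 (chromosome 11, 94936224 to 94953042) had 11175 and 96.1 CPM. Col1a1 was found in 54 fibroblasts, Col1a2 in 53, Dcn in 47 and Col3a1 in 35.

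In the whole table, 445 of 12724 genes (3.5%) were at least 4-fold higher in fibroblasts than in all other cells and 302 (2.37%) at least 4-fold lower, a contrast the rule itself used, so nothing is read from these shares. Coch followed the rule's genes at 4621 CPM in fibroblasts and 35.4 CPM in the other cells, then Crabp1 at 2915 and 27.5 CPM, and Sparc at 9515 and 125 CPM. Coch was found in 27 of the 54 cells, Crabp1 in 28 and Sparc in 54. Further down were Tnmd at 1238 and 7.74 CPM, Bgn (biglycan) at 1706 and 15.1 CPM, and Mfap4, a microfibril protein, at 787 and 4.02 CPM. Ctsk, the collagen-degrading cathepsin K, had 673 CPM in fibroblasts and 4.14 CPM in the other cells, and Pcolce, which enhances procollagen cleavage, 793 and 7.26 CPM. The rest of the 25 were Aspn, Lum, Igfbp5, Ccl19, Fmod, Enpp2, Dkk2, Olfml3, Cck, Col6a3, Mfap2, Col6a2 and Igfbp7, with ratios between 43.0 and 149.

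**Figure D3:**
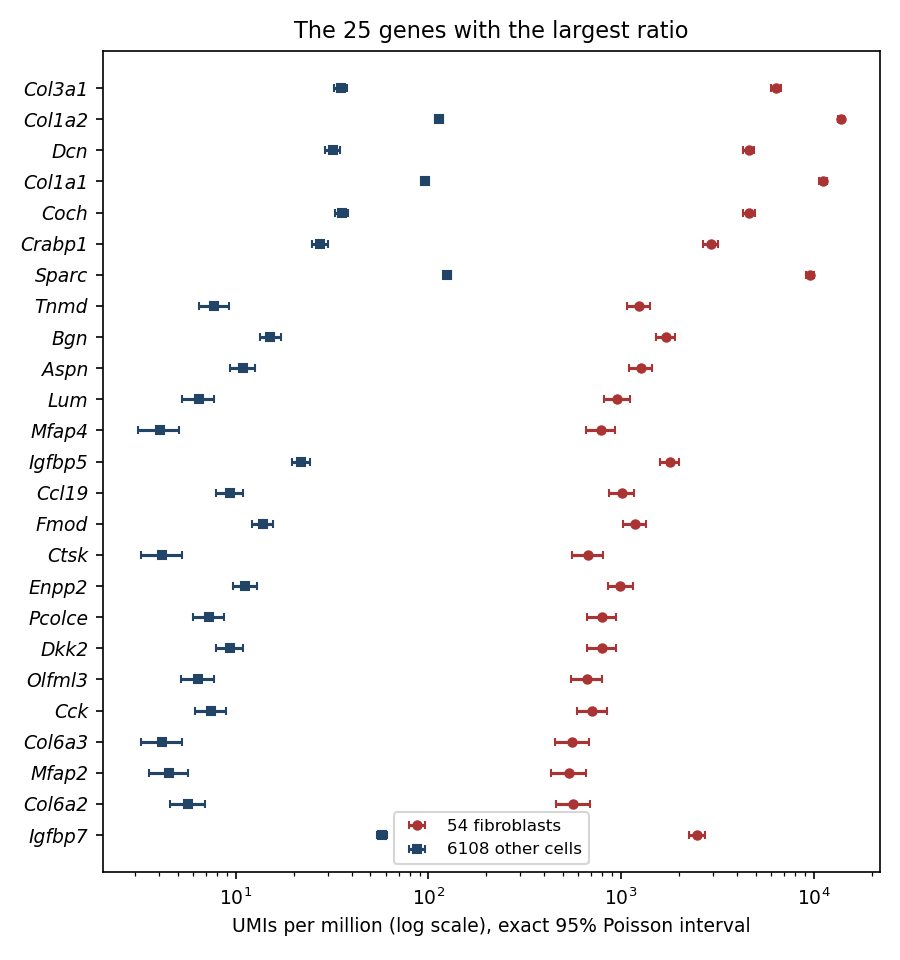
Levels in CPM (log x axis) of the 25 genes with the largest fibroblast ratio, in 54 fibroblasts and in 6108 other cells, with exact 95% Poisson intervals. Col3a1, Col1a2, Dcn and Col1a1 were used to choose the cells; the fibroblast point lies to the right of the other cells' point for every gene shown.

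By list, small leucine-rich proteoglycans were 9 of 9 at least 4-fold higher in fibroblasts, with a median log2 ratio of 5.64 against 0.01 over all genes, and 8 of 8 (median 4.85) without Dcn, which the rule used. Fibrillar collagens were 7 of 8, and 4 of 5 (median 3.25) without the 3 collagens of the rule, with Col5a2 (a partner chain of type I fibrils) at 468 CPM in fibroblasts and 5.46 CPM in the other cells. Other collagens were 10 of 14 (median 3.59), and Col17a1, the hemidesmosome collagen of basal keratinocytes, was the 1 at least 4-fold lower, with 0 UMIs in fibroblasts and 179 CPM in the other cells. Collagen processing genes were 11 of 18 higher (median 2.54), among them Serpinh1 at 1266 CPM in fibroblasts and 30.9 CPM in the other cells. Elastic fibre and other matrix genes were 17 of 21 (median 3.02), with Eln at 382 and 3.18 CPM. Proteases and inhibitors were 11 of 16 (median 3.08), with Mmp2, a gelatinase, at 405 and 10.6 CPM and Timp2, its inhibitor, at 1341 and 142 CPM.

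Surface and transcription factor genes of fibroblasts were 11 of 14 at least 4-fold higher, with a median log2 ratio of 2.91. Pdgfra had 16 UMIs in 12 cells, or 91.3 CPM in fibroblasts and 0.42 CPM in the other cells. Twist2 had 319 and 1.62 CPM, and Prrx1, a mesenchymal homeobox factor, 245 and 2.82 CPM. S100a4, also called a fibroblast-specific protein, was almost level, at 1654 CPM in fibroblasts and 1429 CPM in the other cells, and Vim, the intermediate filament vimentin, stood at 3560 and 1785 CPM. Of the subtype lists, papillary genes were 4 of 7 higher (median 2.20), reticular and fascia genes 5 of 10 with 1 lower (Plac8, median 1.55), and dermal papilla and sheath genes 5 of 6 (median 3.35). Papillary genes summed to 1813 CPM in the 2 deep cells, 622 in Coch-led and 381 in Col3a1-led cells. Of these sums, Trps1 alone held 826, 471 and 146 CPM, so most of the Coch-led sum is 1 gene. Col23a1 had 26 UMIs in the deep cells and 2 in Col3a1-led cells, and Lef1 8 and 1, with 0 of both in Coch-led cells. Dermal papilla and sheath genes summed to 6725, 5370 and 337 CPM in the same 3 groups. There Notum had 17, 2 and 1 UMIs. Adipocyte lineage genes were 1 of 7 (median 0.72), and that gene, Fabp4, had 73 of its 74 UMIs in the 3 Rgs5-bearing cells.

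Genes of signals to the follicle were mixed. Of 24 hair cycle growth factors and antagonists, 9 were at least 4-fold higher in fibroblasts and 1, Fst, lower, with a median of 0.97. Bmp4, a factor that holds follicle stem cells at rest, had 445 CPM in fibroblasts and 8.10 CPM in the other cells, but 62 of its 78 UMIs lay in the 2 deep cells. Dkk2 had 793 and 9.36 CPM, and Fst, the activin and BMP antagonist follistatin, 22.8 and 154 CPM. In the insulin-like growth factor axis 7 of 8 genes were higher (median 3.74). Igfbp5 had 1791 CPM in fibroblasts and 21.9 CPM in the other cells, Igfbp7 2470 and 57.5 CPM, and Igf1, the growth factor itself, 211 and 30.3 CPM. Igfbp3 had 251 of its 271 UMIs in the 2 deep cells. Without these 2 cells 446 genes were at least 4-fold higher in fibroblasts and 311 lower.

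Among chemokines and cytokines 5 of 23 were higher (Cxcl1, Cxcl9, Ccl11, Ccl19 and Il6) and 3 lower (Cxcl2, Cxcl14 and Ccl8), with a median of 0.55. Cxcl1, an attractant of neutrophils, had 365 CPM in fibroblasts, from 4 cells, and 15.5 CPM in the other cells. Of its UMIs, 60 lay in 2 Rgs5-bearing cells, 3 in 1 deep cell and 1 in 1 Col3a1-led cell. Il6 had 11 UMIs in 2 Rgs5-bearing cells and 7 in 3 Col3a1-led cells. Cxcl9 had 18 UMIs in 1 Coch-led cell, 6 in 2 Col3a1-led cells and 1 in 1 deep cell. Cxcl2, a close relative of Cxcl1, had 5.70 CPM in fibroblasts and 349 CPM in the other cells. Complement genes were 4 of 11 higher (median 1.12), led by Serping1, the C1 inhibitor, at 456 and 6.00 CPM. Growth factor receptors were 2 of 14 (Fgfr1 and Tgfbr3, median 1.11) and retinoid, lipid and detoxification genes 4 of 14 (Crabp1, Crabp2, Gsn and Cyp1b1, median 0.93). The 2 deep cells held 32 UMIs of Fgfr1, against 2 in Coch-led and 9 in Col3a1-led cells. They held 21 of Crabp2, against 5 in Coch-led cells. All 7 contractile genes were higher (median 3.35), with 219 UMIs of the list in the Myh11-bearing P50 cell alone. Early-response genes were 0 of 18 higher and 1 (Myc) lower (median 0.52), with Fos at 3292 CPM in fibroblasts and 2341 CPM in the other cells. Cell cycle genes were 0 of 11 higher, 6 of them with no UMI in a fibroblast, and their summed level was 57.0 CPM in fibroblasts and 294 CPM in the other cells.

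Oncostatin M, the macrophage cytokine in the title of the study, signals through the Osmr chain paired with gp130, the Il6st product. None of the 7 receptor genes of the family was past 4-fold in either direction, and their median log2 ratio was 0.35. Osmr had 3 UMIs in fibroblasts, or 17.1 CPM (3.53 to 50), and 11.2 CPM in the other cells, a ratio of 1.53 (0.312 to 4.53). All 3 of these UMIs lay in the Rgs5-bearing cells. The other 51 fibroblasts had none in 164913 UMIs, which allows up to 18.2 CPM, so a level like that of the other cells was not detectable at this depth. Il6st had 91.3 CPM in fibroblasts and 34.3 CPM in the other cells, a ratio of 2.66 (1.51 to 4.36). Of its UMIs, 5 lay in 2 of the Rgs5-bearing cells. With those 3 cells counted among the other cells, its log2 ratio was 0.78 in place of 1.19. Il11ra1, the receptor chain for interleukin 11, had 240 CPM in fibroblasts and 71.7 CPM in the other cells, a ratio of 3.34 (2.40 to 4.55). Lifr, the receptor chain for leukaemia inhibitory factor, had 11.4 and 27.2 CPM, Il6ra 5.70 and 46.5 CPM and Cntfr 17.1 and 2.46 CPM, from 3 UMIs or fewer each in fibroblasts, and Il31ra had no UMI in fibroblasts and 2.40 CPM in the other cells.

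Of 16 genes of JAK-STAT signalling and its feedback, none was past 4-fold, with a median log2 ratio of -0.27. Stat5a and Stat5b, the transcription factors of the pathway named in the study's title, had 17.1 CPM each in fibroblasts, against 21.1 and 13.5 CPM in the other cells. Socs3, a feedback inhibitor, had 416 CPM in fibroblasts and 214 CPM in the other cells, and Pim1, a kinase gene induced by STATs, 114 and 476 CPM. The Socs3 level was uneven among fibroblasts, at 1056 CPM in the 2 deep cells, 358 CPM in Coch-led cells and 87.9 CPM in Col3a1-led cells.

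Markers of other cell types were low but present. Of 18 immune markers, 17 were at least 4-fold lower in fibroblasts, against 2.37% of all genes that passed. The rule excluded Ptprc and limited Cd74, so low immune markers are not independent of the choice of cells. C1qb, Cd68 and Mrc1, which mark macrophages, had no UMI. Other myeloid members were present. Fcer1g had 10 UMIs in Coch-led and 12 in Col3a1-led cells, Tyrobp 4 and 5, Lyz2 2 and 7, and C1qa 1 and 2. The summed level of the 18 was 1466 CPM in fibroblasts, in 43 of the 54 cells, and 24224 CPM in the other cells. The 2 main groups were alike in this sum, at 2035 CPM in Coch-led and 1919 CPM in Col3a1-led cells. In P50, 1 Coch-led cell had 15 UMIs and 1 Col3a1-led cell 10 UMIs of Cd3g, a T cell receptor component. Of 14 keratinocyte markers 10 were at least 4-fold lower, with a sum of 479 CPM in fibroblasts and 9863 CPM in the other cells, and 7 fibroblasts had a Krt5 or Krt14 UMI, at most 4. Without Krt5 and Krt14, which the rule limited, 8 of 12 were lower, with a sum of 422 CPM in fibroblasts and 7438 CPM in the other cells. Endothelial markers were 0 of 11 past 4-fold and 7 of 12 had no UMI, with a sum of 97.0 CPM in fibroblasts and 74.6 CPM in the other cells. Mural markers were 2 of 7 higher (Rgs5 and Myh11), at 308 CPM in fibroblasts and 33 CPM in the other cells. No member of the Schwann cell and melanocyte, skeletal muscle or red blood cell lists that passed was past 4-fold, at 120 and 41.3 CPM, 28.5 and 2.76 CPM, and 217 and 439 CPM. A single fibroblast held 11 UMIs over the Schwann cell and melanocyte list. The part of RNA from other cells in these values was not tested.

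The gate left out more cells than it kept. Of 117 cells with 5 or more collagen and decorin UMIs, 63 were left out, 40 with a Ptprc UMI and 53 with 10 or more Cd74 UMIs, 30 of them with both. By library, 53 were in P45, 3 in P50 and 7 in P63. Fibroblasts held up to 723 of these UMIs and the cells left out up to 720. Among cells with 20 or more, 19 of 41 fibroblasts and 18 of 26 left out had more Coch than Col3a1. Of the fibroblasts, 4 had fewer than 10, the lowest being 6, and just under the minimum 1 cell had 4 and 9 cells had 3.

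Across libraries, fibroblasts made up 0.0669% of P50_Depil5D (1 of 1494 cells, 0.00169 to 0.372) and 0.684% of P50 (10 of 1462, 0.328 to 1.25). The ratio was 0.0979 (0.00225 to 0.688), on counting error alone. The P50_Depil5D count is the deep cell. Without it the ratio is at most 0.294 when 0 of 1493 cells is set to 3, and the exact interval reaches 0.437. Along telogen the share was 1.59% at P45 (34 of 2142, 1.10 to 2.21), 0.684% at P50 and 1.56% at P63 (9 of 576, 0.717 to 2.95). At P80 it was 0 of 488 cells, which allows up to 0.615% when 0 is set to 3 cells. The exact interval reaches 0.753%. P80 was thus at least 2.58-fold lower than P45 when its 0 is set to 3 cells, and at least 1.99-fold by the exact interval. The P63 share was close to that of P45, with a ratio of 0.984 (0.415 to 2.10), and P50 lay below P45, with a ratio of 0.431 (0.190 to 0.892). Fewer fibroblasts in the skin, a change in their release and a different sort purity cannot be told apart here.

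These shares depended on the gate and on 1 library. Without P45 the share over all libraries was 0.498%. The comparison of P80 with P45 was lost when fibroblasts had to have 0 UMIs of Krt5, Krt14 and Cd74, or 0 UMIs over 9 immune markers, since P45 then kept 10 and 12 cells and the bound rose above 1. In P80, 247 of 488 kept cells shared a barcode with another library, against 12 of 2142 in P45, and without such cells the P80 over P45 bound was 0.780, with an upper interval limit of 1.01, so a lower share was no longer shown.

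**Figure D4:**
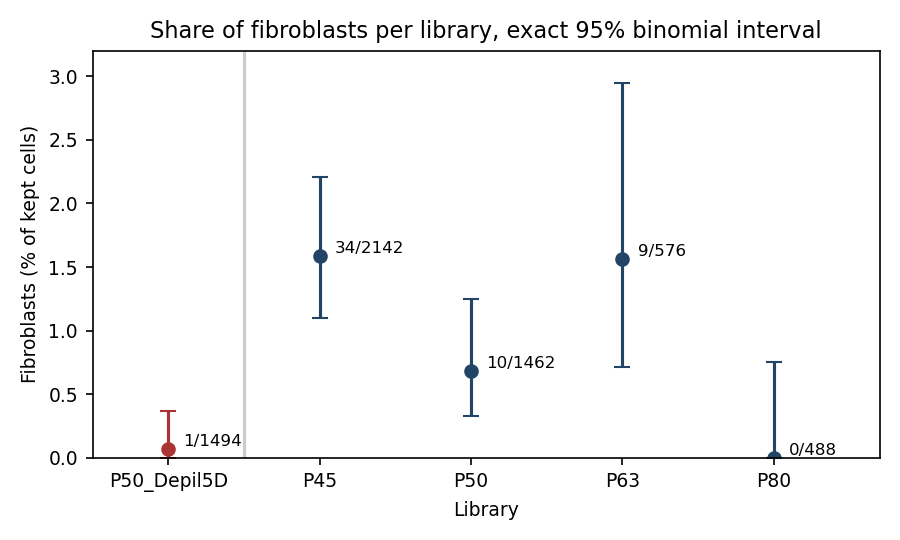
Share of kept cells in each library that met the fibroblast rule (y axis, percent), with exact 95% binomial intervals and the number of fibroblasts over kept cells beside each point. P50_Depil5D stands left of the line, and the telogen libraries run from P45 to P80; P45 and P63 lie near 1.6%, and P80 has no fibroblast.

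The fibroblasts of the libraries differed in makeup. Of those in P45, 16 were Coch-led, 16 Col3a1-led and 2 Rgs5-bearing. P50 had 2, 7 and 1 of these kinds, P63 had 3, 5 and 0 with the deep cell besides, and the only P50_Depil5D fibroblast was the other deep cell. Collagen and decorin UMIs per cell were 7 to 723 in P45 (median 61), 9 to 158 in P50 (median 23.5), 6 to 93 in P63 (median 23) and 23 in the P50_Depil5D cell, so the ranges overlapped.

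In summed counts, Col1a1 stood at 18649 CPM in P45 fibroblasts (17782 to 19548), 6141 in P50 (5149 to 7268), 2140 in P63 (1704 to 2653) and 325 in the P50_Depil5D cell (131 to 669). The P63 level was 4711 CPM (3730 to 5871) in its 8 cells without the deep cell. Coch had 7894 CPM in P45, 1910 in P50, 877 in P63 and no UMI in the P50_Depil5D cell. Crabp1 ran the other way, at 2022 CPM in P45, 2365 in P50, 4537 in P63 and 4409 in the P50_Depil5D cell, and was 1372 CPM in P63 without the deep cell. Sparc had 15573 CPM in P45, 6004 in P50, 2114 in P63 and 278 in the P50_Depil5D cell, and 4711 CPM in P63 without the deep cell. P45 thus held the highest Col1a1, Coch and Sparc levels of the 4 libraries with a fibroblast, with and without the deep P63 cell.

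Set against the 10 P50 fibroblasts, the single P50_Depil5D cell differed by over 2-fold in 56 of 320 genes upward (17.5%) and 58 downward (18.1%), among genes with at least 20 UMIs over both. It had 111 UMIs of Igfbp3, 43 of Prlr (the prolactin receptor), 29 of a (agouti signalling protein) and 20 of Slc26a7 (an anion transporter), and P50 fibroblasts had 0 of each. Hspb1, a small heat shock protein, had 76 UMIs in the P50_Depil5D cell and 3 in P50 fibroblasts. In the other direction, the P50_Depil5D cell had no UMI of Mylk, Igfbp5, Coch, Tagln or Mgp, where P50 fibroblasts had 49, 46, 42, 29 and 28. All 49 Mylk UMIs and 28 of the 29 Tagln UMIs of P50 lay in its Myh11-bearing and Rgs5-bearing cells, as did 34 of the 46 Igfbp5 UMIs, and 27 of the 28 Mgp UMIs lay in 1 further cell. With 1 cell, a difference between cells and one between conditions cannot be told apart. No gene could be compared between P80 and P45, since P80 had no fibroblast.

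Within the 54 cells, Col1a1 and Col1a2 had a Spearman correlation of 0.86, Coch and Fmod 0.88, Coch and Tnmd 0.79 and Coch and Crabp1 0.73, over cells that share library and depth. Col1a1 followed Col3a1 less closely, at 0.45, and Dcn at 0.62. Clec3b went with Col3a1, at 0.75. Of the 21 cells with Fmod and the 16 with Clec3b, 1 had both.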

How the data were processed

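The authors deposited UMI counts per gene and cell barcode as whole numbers, which is the unit used here. Per the submitters' processing notes the build was mm10 and Seurat was used, with its role not stated. No source used here names the aligner, the counter or the cell-calling rule. Gene coordinates come from GENCODE for the same build. Members and gene lists were chosen with earlier results of these data known. Of 6223 barcodes, 61 were removed. Counts were summed over the cells of a group and divided by their total to give CPM. Ratios are of CPM, with exact conditional 95% intervals, and levels have exact Poisson intervals. Threshold calls used log2 ratios with 10 CPM added and genes with at least 20 UMIs over both pools. A count of 0 was set to 3 UMIs or cells, and the exact intervals reach further than the bounds set this way. With 1 library per condition no p-value was computed. Cells are not replicates.

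Named genes were the list members with the highest fibroblast level, the receptors, and the 25 largest ratios among genes with at least 20 UMIs in fibroblasts, from at least 3 libraries. For the P50_Depil5D cell they were up to 5 each way. Other list members named were chosen after their values were seen. Ratio and interval code was tested on simulated counts. Alternatives used edgeR 4.0.16 (TMM scaling) and Scrublet in scanpy 1.11.5, which marked 21 cells, or 0.341%, and no fibroblast. So low a share means that doublets were in effect not removed.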

Additional observations from a re-analysis of the deposited data

How the results depend on the processing

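Leaving out each library in turn gave a fibroblast share of 0.498% (without P45) to 1.14%, 385 to 445 genes at least 4-fold higher in fibroblasts and 290 to 423 lower. For Coch-led against Col3a1-led cells it gave 10 to 37 genes higher and 16 to 46 lower, the lowest without P45. With 0 UMIs of Krt5, Krt14 and Cd74 the share was 0.308%, 677 genes were lower in fibroblasts, and the P80 over P45 bound was 1.32, which shows no lower share. With 0 UMIs over 9 immune markers these were 0.406%, 463 genes and 1.10. The bound was 0.596 with at least 500 genes per cell, 0.780 without shared barcodes and 0.660 without cells of low ribosomal pseudogene share. Adding 1 CPM in place of 10 gave 1030 genes higher and 2169 lower. TMM scaling gave 325 higher and 430 lower, by factors of 1.22 for fibroblasts and 0.822 for other cells, which shift every log2 ratio by -0.57, so genes near a ratio of 1, such as S100a4 and Fos, turn lower. Comparisons of Coch-led with Col3a1-led cells, all chosen after seeing the data, moved in 4 further ways. Counting the 5 other cells with the Col3a1-led gave 77 genes lower, P45 cells only gave 28 lower, no filter on low counts gave 614 higher and 607 lower, and 0 UMIs over 9 immune markers gave 11 higher and 26 lower. The cause of these moves was not tested, beyond fewer cells or genes entering. The P50_Depil5D over P50 ratio stayed between 0.0961 and 0.178 under the cell rules that kept the P50_Depil5D fibroblast. Its interval reached 1.34 with 0 immune UMIs and 1.08 with at most 5% mitochondrial UMIs. With 0 UMIs of Krt5, Krt14 and Cd74 there were 0 of 1494 cells against 7 of 1462. The 0.419 given there is a bound with 0 set to 3 cells. Without the deep cell the bound was 0.294. No paired analysis was possible because each condition is 1 library. Depth limits genes of few UMIs: 1 UMI over all fibroblasts is 5.70 CPM.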
